A study of Mus musculus with 6 samples.

Results

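The genes described here encode the enzymes that chemically modify and clear foreign compounds: cytochrome P450s of families CYP1 to CYP4, flavin-containing monooxygenases (FMO), aldehyde dehydrogenases (ALDH), carbonyl reductases (CBR), UDP-glucuronosyltransferases (UGT) and glutathione S-transferases (GST). They were taken by gene symbol from the protein-coding rows of the count table, which gave 144 genes of 21263. The symbol rule used no measured value. It also took in Aldh16a1 and Aldh18a1, whose symbols begin like those of the ALDH1 family. Both are counted in all totals of enzyme genes below, but not in the ALDH1 family.

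Male CD-1 mice gave the 6 vomeronasal organ libraries: 3 followed a control exposure and 3 an exposure to pups. Ribosome-bound RNA was recovered from organ lysates by precipitating ribosomal protein S6 in its phosphorylated form, a mark used as a readout of recent cell activity, and was sequenced after low-input cDNA synthesis. The labels do not say what the control exposure was, how old the animals were, or whether each library stands for its own animals. If animals were shared, a p-value reflects no more than library-to-library spread, possibly technical. No unprecipitated input was analysed here, so a level is a level in the precipitate.

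Clearance of a foreign compound is usually described in steps. P450s and FMOs add or expose an oxygen group with electrons from NADPH, ALDHs and CBRs oxidise or reduce carbonyl groups, and UGTs and GSTs then attach a glucuronic acid or a glutathione that makes the product easier to export. In nasal tissue these enzymes are known from supporting cells and glands, where they act on odorants and inhaled chemicals, and mouse Cyp2a5, Cyp2f2 and Cyp2g1 are well known as nasal P450s.

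The control exposure libraries had 10590716 to 11240065 counts in total and the pup exposure libraries 18199476 to 20871266, so depth and group cannot be told apart other than by scaling. Levels are given as CPM, the counts of a gene relative to all counts of the library, scaled by TMM factors, which ran from 0.605 to 1.39. Of the 144 enzyme genes, 49 had no count in any library. For such a gene the floor of 3 counts over all 6 libraries is 0.0326 CPM before TMM scaling, which covers counting error only. A further 33 genes were counted but lay below the filter on low counts, and 62 were tested among 15498 genes. The counts and medians below describe these 62 genes and not all 144.

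Most of the tested enzyme genes had lower levels after pup exposure, and none passed the test across all genes. Of the 62, 46 had a negative log2 fold change (pup exposure over control exposure) and 16 a positive one, and their median was -0.57, beside 0.03 for all genes tested, of which 48.5% were negative. By edgeR's quasi-likelihood test with Benjamini-Hochberg adjustment, 0 enzyme genes were lower and 0 higher at an adjusted p under 0.05, and the share of all genes called was 0.0% in each direction. At an unadjusted p under 0.05, 10 enzyme genes were lower, which is 16.1% of those tested beside 4.67% of all genes, and 0 were higher, beside 6.31% of all genes. These shares are over genes of every exon length, and shares of genes of like length, which differ, are given further below. The 10 were Cbr2 and Cbr1 among the reductases, Cyp2g1, Cyp2f2 and Cyp4f13 among the P450s, Aldh3b1, and the transferase genes Gstm7, Gstm4, Gstt3 and Gstp1. Their number was 3 when pup exposure replicate 2 was left out (beside 2.59% of all genes), 4 when pup exposure replicate 3 was (4.53%) and 5 when control exposure replicate 1 was (2.83%). DESeq2 called 1 of them lower at an adjusted p under 0.05, Cbr2, beside 0.626% of the genes to which it gave an adjusted p. Without the filter on low counts edgeR called 1 lower at an adjusted p under 0.05, Cyp2g1, beside 0.247% of all genes. Limma-voom called 0 lower at an adjusted p under 0.05, beside 0.0452% of all genes, and 8 lower at an unadjusted p under 0.05, beside 5.43% of all genes. Scaling by library totals alone left 2 lower at an unadjusted p under 0.05, beside 1.08% of all genes. In 11 enzyme genes every pup exposure library lay below every control exposure library, which is 17.7% of those tested beside 9.6% of all genes. In 2 enzyme genes every pup exposure library lay above, 3.23% beside 10.1% of all genes. Fewer cells of a type, less RNA per cell and less recovery of that RNA in the phospho-S6 precipitate cannot be told apart in these bulk libraries.

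**Figure D1:**
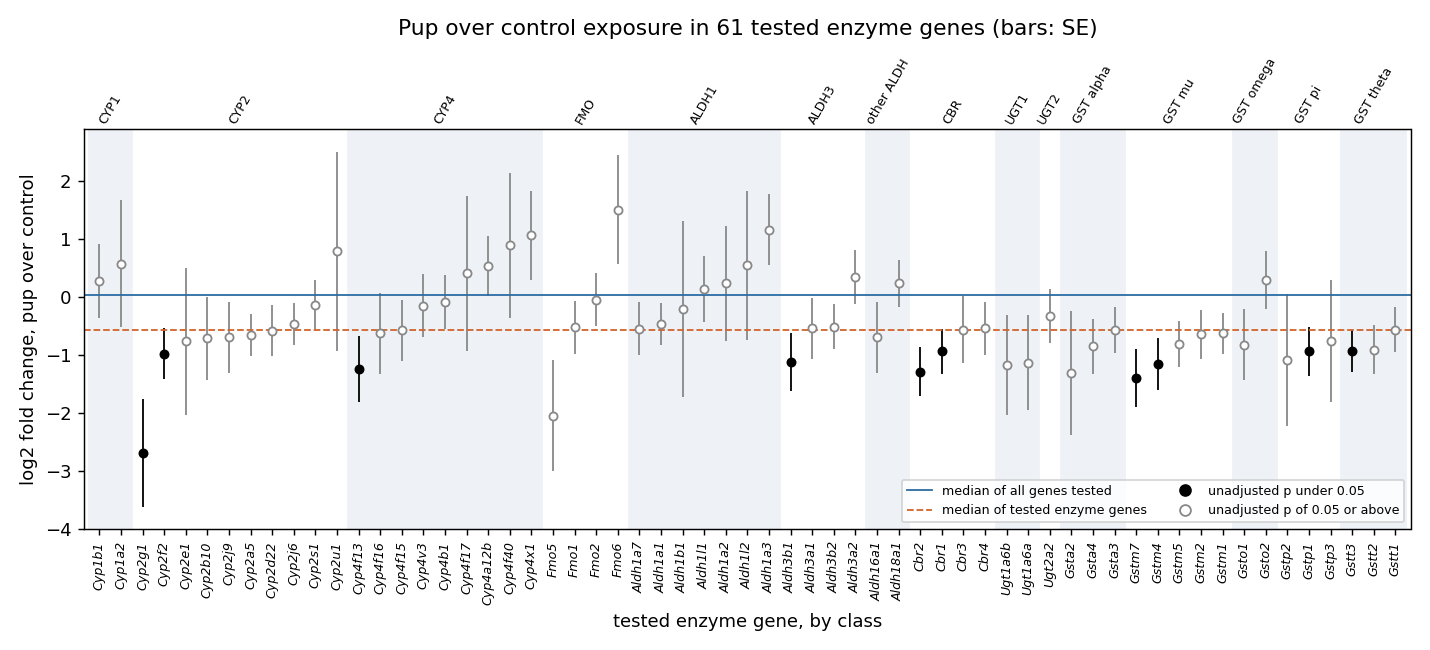
Log2 fold change (pup exposure over control exposure) of tested enzyme genes, by enzyme class, from the edgeR fit across all genes. Each point is a gene, its bar the SE, and filled points have an unadjusted p under 0.05. The 4 CBR genes and 15 of the 16 GST genes lie below 0, while the ALDH1 genes lie on both sides.

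A measured property of the genes moved with these differences. Over all genes tested, fold changes went with the summed length of a gene's exons: the median log2 fold change was -0.41 for the 1064 genes of at most 1000 bases, -0.49 for the 1832 genes of 1000 to 2000 bases, -0.19 for the 4470 genes of 2000 to 4000 bases, 0.26 for the 5360 genes of 4000 to 8000 bases and 0.47 for the 2582 longer genes. The tested enzyme genes were short, with a median exon length of 2389 bases beside 4151 bases for all genes. Inside the same length ranges the enzyme genes had a value of -0.76 for the 1 shortest gene and medians of -0.83 over 14 genes, -0.56 over 28 genes and -0.13 over 19 genes. Of those 14, 28 and 19 genes, 13, 21 and 11 were negative, beside 77.6%, 61.1% and 36.2% of all genes in the range. Lower at an unadjusted p under 0.05 by edgeR were 4, 5 and 1 of them, beside 10.4%, 6.42% and 2.82%. When the length trend of each library was taken out before the fit, a setting chosen after seeing the data, 45 of the 62 enzyme genes were negative, with a median of -0.33 beside -0.0040 for all genes. In that fit 7 enzyme genes were lower at an unadjusted p under 0.05, beside 4.72% of all genes. The groups thus differed in a property shared by genes of every kind, and its part in the enzyme result was not tested beyond these values.

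**Figure D2:**
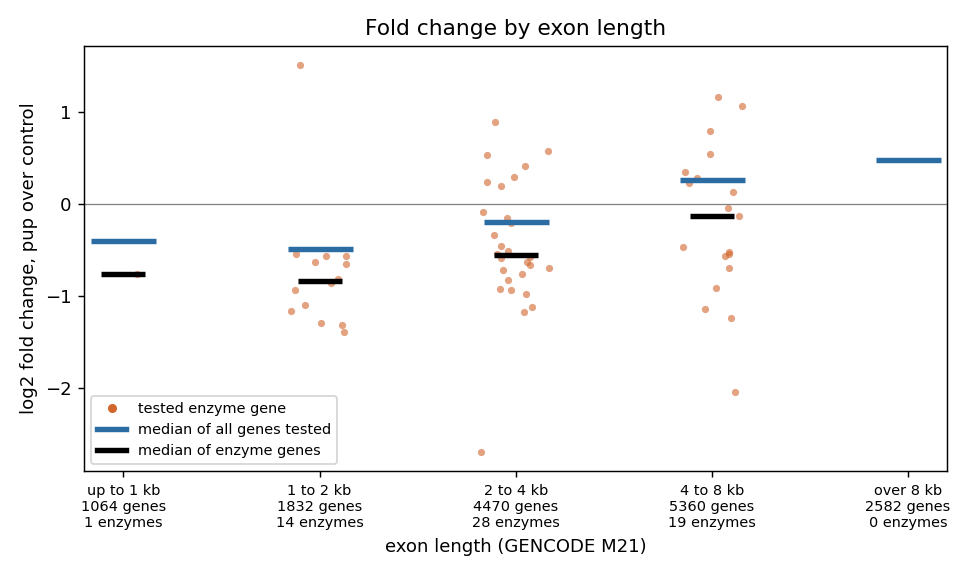
Log2 fold change (pup exposure over control exposure) in 5 ranges of summed exon length. Points are tested enzyme genes, blue bars the median of all genes and black bars the median of the enzyme genes, which lies below the blue bar in each range that holds enzyme genes.

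The total of the enzyme transcripts was dominated by a few genes. Summed over all members, the level was 7399 ± 341 CPM after control exposure, against 3906 ± 206 CPM after pup exposure (SD, n = 3 each), a ratio of 0.528, and the groups did not overlap. Without Cbr2 the ratio was 0.611. As shares of summed counts, not per length, Cbr2 made up 40.9% after control exposure but 31.7% after pup exposure, and Cyp2f2 15.7% and 15.02%. Together with Ugt2a2, Gsto1, Gsta4 and Gstm1 they made up 82.1% and 77.6%. As a share of all counts of a library, with no scaling, the enzyme genes held 0.876%, 0.740% and 0.449% in control exposure replicates 1, 2 and 3, and 0.414%, 0.508% and 0.389% in the pup exposure libraries. On that scale the groups overlapped, because control exposure replicate 3 lay inside the pup exposure range. The 50 most abundant genes took up 42.8% to 71.1% of each library. With those left out of the denominator the enzyme share was 1.55% to 1.77% after control exposure, against 0.887% to 0.952% after pup exposure, without overlap.

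**Figure D3:**
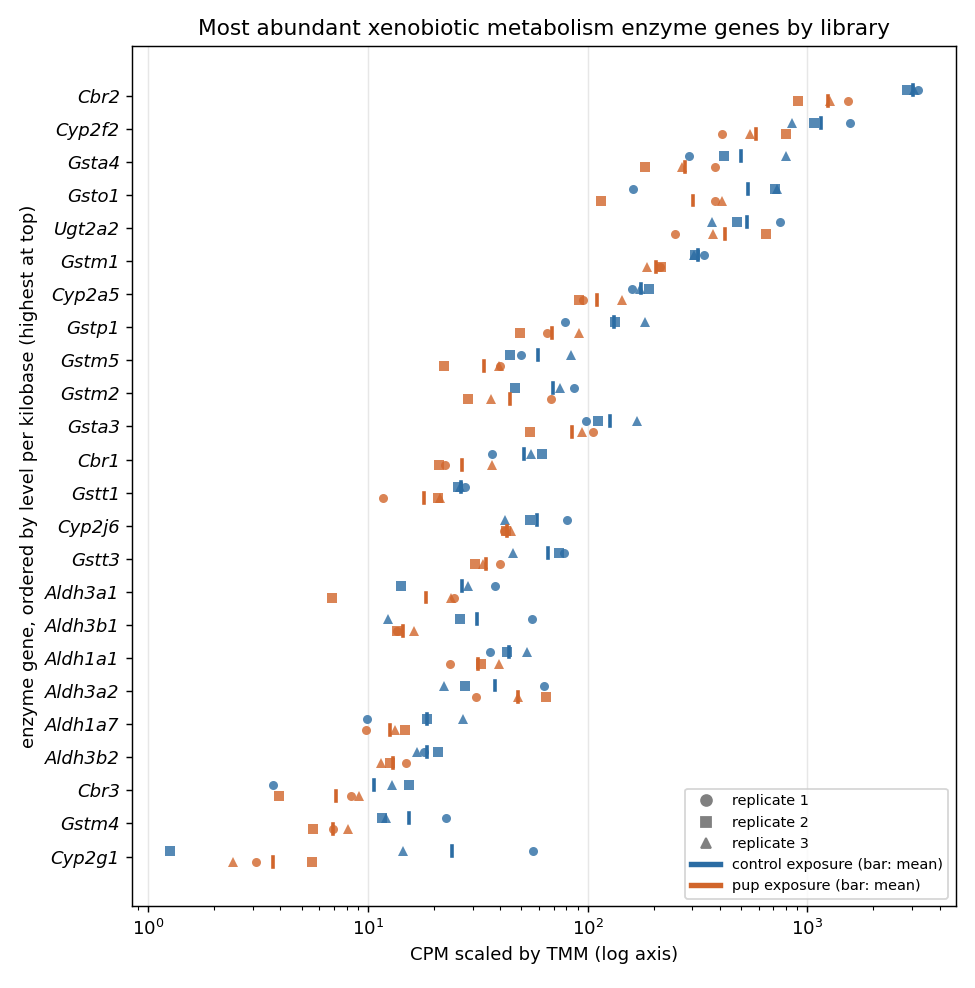
Level in CPM on a log axis of the enzyme genes highest per kilobase, in each of the 6 libraries, with short bars at the group means. Cbr2 lies between 2839 and 3192 CPM in the control exposure libraries and between 906 and 1533 CPM in the pup exposure libraries, while Ugt2a2 overlaps between the groups.

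Carbonyl reductases turn reactive aldehydes, ketones and quinones into alcohols. Cbr2, a carbonyl reductase known from mouse lung, was the highest of all enzyme genes per length, at 1608 CPM per kilobase of exon. It lies on chromosome 11 from 120729489 to 120732114 on the minus strand of GRCm38. Its level was 3192, 2839 and 3058 CPM in the control exposure libraries and 1533, 906 and 1272 CPM in the pup exposure libraries. On this TMM scale the groups were far from overlapping: the lowest control exposure library lay well above the highest pup exposure library. As an unscaled share of all counts they did not overlap either, but control exposure replicate 3 came much closer to pup exposure replicate 1. The means were 3030 ± 178 and 1237 ± 315 CPM (SD, n = 3 each), a log2 fold change of -1.29 ± 0.42 (SE) with an adjusted p of 0.412 by edgeR's quasi-likelihood test. DESeq2 gave an adjusted p of 0.0338. With the length trend removed the log2 fold change of Cbr2 was -0.87. A share of 15.1% of its 50-base words also occurs in the pseudogene Gm11771, which held at most 0.862 CPM in any library.

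Cbr1, the widely expressed carbonyl reductase, stood at 36.8, 62.1 and 55.2 CPM after control exposure, against 22.5, 21 and 36.8 CPM after pup exposure. The highest pup exposure library lay just below the lowest control exposure library, and the log2 fold change was -0.94 ± 0.38 (SE; edgeR adjusted p = 0.439). The remaining reductases, Cbr3 and Cbr4, had log2 fold changes of -0.57 and -0.54, and their groups overlapped. Leaving out single libraries gave -0.98 (control exposure replicate 1) to -0.17 (control exposure replicate 2) for Cbr3, and -0.95 (pup exposure replicate 1) to -0.29 (pup exposure replicate 2) for Cbr4.

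Of the 49 CYP2 genes 23 had no count and 10 were tested, with 9 negative and 1 positive fold changes and a median of -0.68, which was -0.40 with library totals alone and -0.43 with the exon length trend removed. The subfamilies best known from liver were near silent. Of the 15 Cyp2c genes 12 had no count and none was tested, of the 9 Cyp3a genes 8 had no count, and all 7 Ugt2b genes had none. Hepatocyte transcripts were likewise missing in part, with Alb and Fgb at 0 counts in every library, although the list as a whole summed to 135 to 164 CPM in the control exposure libraries and to 70.5 to 78.9 CPM in the pup exposure libraries.

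Cyp2f2, a P450 known from mouse airway and nasal epithelium for its action on naphthalene, reached 431 CPM per kilobase and was second among all enzyme genes on that scale. It stood at 1557, 1070 and 852 CPM after control exposure and at 407, 803 and 550 CPM after pup exposure. The groups were separated only narrowly, by pup exposure replicate 2 and control exposure replicate 3. Its log2 fold change was -0.98 ± 0.44 (SE; edgeR adjusted p = 0.449), and -0.55 with the length trend removed.

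Cyp2a5 oxidises coumarin and nicotine and is a nasal and liver P450 in the mouse. Its near-identical neighbour Cyp2a4 is a steroid hydroxylase. Over 1482 coding bases the pair differs at 23, an identity of 98.4%, so short reads can be assigned to either. The stretches below (coding positions 197 to 256 from the start codon, GENCODE M21) show why the pair is read with caution, with capitals marking the 3 bases that differ. They lie on the plus strand of GRCm38 at chr7:26835811-26835870 for Cyp2a5 and chr7:26307666-26307725 for Cyp2a4.
Cyp2a5: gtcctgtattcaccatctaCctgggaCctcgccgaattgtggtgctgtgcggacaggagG
Cyp2a4: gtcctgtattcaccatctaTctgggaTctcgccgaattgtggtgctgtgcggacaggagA
A share of 40.8% of the 50-base words of Cyp2a5 occurs in another gene. The table gave 12519 counts to Cyp2a5 over all libraries and 27 to Cyp2a4. Cyp2a5 stood at 159, 190 and 174 CPM after control exposure and at 95.1, 91.3 and 144 CPM after pup exposure, with no overlap. The log2 fold change was -0.66 ± 0.37 (SE; edgeR adjusted p = 0.515), and -0.30 with the length trend removed.

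Cyp2g1, an olfactory P450, had the most negative fold change of the enzyme genes, -2.70 ± 0.94 (SE; edgeR adjusted p = 0.424), but it rested on 1 library. Its level was 56.4, 1.26 and 14.4 CPM after control exposure, against 3.11, 5.56 and 2.42 CPM after pup exposure. Control exposure replicate 1 was the highest by far and control exposure replicate 2 the lowest, so the groups overlapped. Without control exposure replicate 1 the log2 fold change was -1.05. With sample quality weights in limma-voom it was -0.13. Single markers chosen after their values were seen were also highest in that library: the olfactory neuron gene Stoml3 was at 49.3 CPM there and at 0.448 to 9.60 CPM elsewhere, and the secreted protein gene Bpifa1 at 678 CPM beside 4.30 to 298 CPM. Their lists as a whole were not highest there: the 8 main olfactory neuron markers summed to 298 CPM in that library and to 304 to 586 CPM in the pup exposure libraries, and the gland markers peaked in control exposure replicate 3. The only CYP2 gene with a positive fold change was Cyp2u1, whose highest level was 2.37 CPM.

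Fold changes of the CYP4 genes had mixed signs, and their difference from the CYP2 genes was not tested. Among 9 tested CYP4 genes, enzymes that mainly hydroxylate fatty acids, 5 were negative and 4 positive, with a median of -0.09. That median was 0.26 with library totals alone, 0.31 with the exon length trend removed and -0.34 with limma-voom, and it ran from -0.55 (pup exposure replicate 2 left out) to 0.38 (control exposure replicate 1 left out). Cyp4f13 was the highest per length, at 5.77 CPM per kilobase. It stood at 67.1, 24.1 and 16.7 CPM after control exposure and at 21.3, 17.2 and 7.22 CPM after pup exposure. The log2 fold change was -1.24 (edgeR adjusted p = 0.454), and control exposure replicate 1 again stood above all other libraries. Without it the log2 fold change was -0.42. Cyp1a2, a P450 of the aryl hydrocarbon response, was at 11.1, 0.179 and 2.19 CPM after control exposure and at 15.9, 2.05 and 2.22 CPM after pup exposure. Both replicates numbered 1 were high and the rest low, and the log2 fold change of 0.57 turned to -1.08 without pup exposure replicate 1.

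FMOs oxidise nitrogen and sulphur atoms. Of the 7 genes 5 were tested, 3 negative and 2 positive. Fmo6 was 1 of the 2 enzyme genes whose pup exposure libraries all lay above the control exposure libraries, at 1.65, 1.17 and 0.156 CPM against 3.70, 3.08 and 1.93 CPM. Its log2 fold change was 1.51 ± 0.95 (SE; edgeR adjusted p = 0.556). Fmo5 lay just outside the unadjusted threshold, at -2.05.

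The ALDH1 family was balanced, with 3 negative and 4 positive fold changes and a median of 0.13, which was -0.37 with limma-voom and -0.16 with the replicate number as a block. Some of these enzymes oxidise retinal and other aldehydes. Aldh1a1, the highest per length at 7.67 CPM per kilobase, stood at 36.1, 42.9 and 52.8 CPM after control exposure and at 23.5, 32.5 and 39.3 CPM after pup exposure, with overlap. Aldh1a3, a retinoic acid-forming enzyme, was the other gene with pup exposure above control exposure. Its level was 1.41, 4.48 and 3.13 CPM against 5.42, 7.47 and 7.27 CPM, and the log2 fold change was 1.16 ± 0.61 (SE; edgeR adjusted p = 0.502). Fmo6 and Aldh1a3 lie outside the rule for naming genes and were named after their values were seen.

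The ALDH3 enzymes act on aromatic and fatty aldehydes. Of the 4 tested, 3 were negative. Aldh3a1, the highest per length, overlapped between groups at 14.2 to 37.8 CPM and 6.87 to 24.6 CPM. Aldh3b1 was at 55.8, 26.4 and 12.3 CPM after control exposure and at 13.6, 13.6 and 16.3 CPM after pup exposure. Its log2 fold change of -1.13 (edgeR adjusted p = 0.45) was -0.42 without control exposure replicate 1, the highest library. Aldh3a2, the fatty aldehyde dehydrogenase, was the member of the family with a positive value, 0.34, which ran from 0.050 (control exposure replicate 3 left out) to 0.95 (control exposure replicate 1 left out).

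Most counts of the UGT genes lay in 1 row. Ugt2a2, an olfactory glucuronosyltransferase, had 188 CPM per kilobase. It was at 752, 479 and 368 CPM after control exposure and at 250, 648 and 371 CPM after pup exposure. The groups overlapped, and the log2 fold change of -0.33 was 0.0030 without control exposure replicate 1. Its row cannot be read as that gene alone, since 94.5% of its 50-base words occur in other transcripts, mostly those of Ugt2a1, which was not analysed here. The UGT1 genes share their last exons. Of the 50-base words of Ugt1a6a and Ugt1a6b, the tested pair, 38.9% and 80.7% occur in another gene. Low UGT1 counts may thus depend on how reads matching several places were treated, which is not known. The pair were at most 10.4 CPM, with log2 fold changes of -1.14 and -1.18 and overlapping groups.

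The glutathione S-transferases, which join glutathione to reactive compounds, had mostly negative fold changes. Of the 20 genes 16 were tested, 15 were negative and 1 positive, and the median log2 fold change was -0.84. At an unadjusted p under 0.05, 4 of the 16 were lower, beside 4.67% of all genes, and in 6 every pup exposure library lay below, beside 9.6% of all genes. The mu class made up 4 of those 6. The tested GST genes were short, with a median exon length of 1574.5 bases. Among genes of any kind with 1000 to 2000 bases of exon, 77.6% had negative fold changes and 10.4% met the same cut-off for lower levels. How far length accounts for these GST counts was not tested. Over all alternative scalings, filters, tools and left-out libraries, 14 to 16 of the 16 were negative, and the median was -0.49 with the exon length trend removed. The single positive value was that of Gsto2, at 0.30, which was -0.24 when pup exposure replicate 1 was left out.

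**Figure D4:**
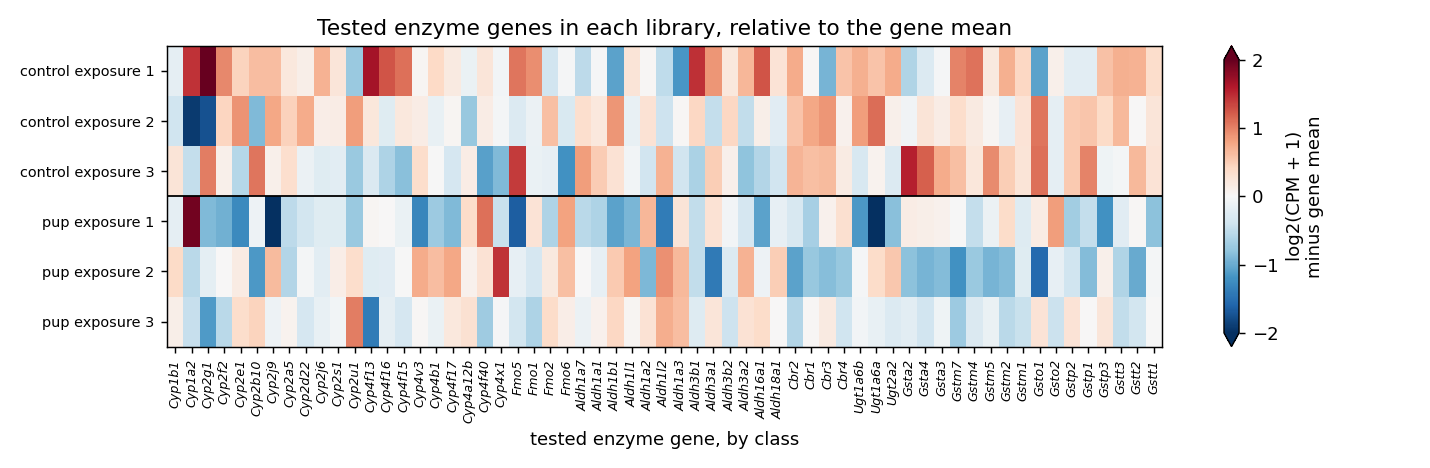
Level of tested enzyme genes in each library, each relative to its own mean over the 6 libraries, on the log2(CPM + 1) scale, with libraries in rows and genes, grouped by class, in columns. The GST columns are mostly higher in the 3 control exposure libraries, and single libraries stand out in Cyp2g1 and Cyp1a2.

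The mu genes sit in 1 cluster on chromosome 3. Upstream sequence is shown for Gstm5 and Gstm7, 2 of the 4 mu genes without overlap between groups. That of Cbr2, the gene with the highest level per length, is shown beside them. Each is the 250 bases before an annotated RefSeq start on GRCm38.p6, and capitals mark a match to TGACNNNGC, the core of the antioxidant response element bound by the regulator Nrf2. They lie at chr3:107895604-107895853 on the plus strand for Gstm5, at chr3:107931615-107931864 on the minus strand for 1 of the 2 annotated starts of Gstm7, and at chr11:120732022-120732271 on the minus strand for Cbr2.
Gstm5: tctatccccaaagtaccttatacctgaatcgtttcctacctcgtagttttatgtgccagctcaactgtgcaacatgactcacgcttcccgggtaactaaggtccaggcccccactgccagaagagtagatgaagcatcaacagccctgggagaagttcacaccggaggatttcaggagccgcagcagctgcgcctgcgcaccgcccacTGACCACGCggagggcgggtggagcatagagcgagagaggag
Gstm7: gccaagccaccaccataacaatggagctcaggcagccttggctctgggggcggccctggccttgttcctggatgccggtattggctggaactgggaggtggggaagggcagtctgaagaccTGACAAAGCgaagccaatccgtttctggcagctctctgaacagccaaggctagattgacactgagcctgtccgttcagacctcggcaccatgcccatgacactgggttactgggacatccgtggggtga
Cbr2: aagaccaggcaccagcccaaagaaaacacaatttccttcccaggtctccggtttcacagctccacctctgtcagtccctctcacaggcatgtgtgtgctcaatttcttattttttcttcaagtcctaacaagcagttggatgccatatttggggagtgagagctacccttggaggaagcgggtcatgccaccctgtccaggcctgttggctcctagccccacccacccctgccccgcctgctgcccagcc
The Gstm5 match also holds, on the opposite strand, GCGTG, the core of the xenobiotic response element. On both strands of windows of 300 bases, 250 before and 50 after the start, TGACNNNGC occurred in 7.35% of the 136 windows of enzyme genes and in 12.4% of all 32851 windows, and GCGTG in 21.3% and 32.4%. By gene, TGACNNNGC was found for 5 of 47 tested enzyme genes with a promoter. Among the 9 of these that were lower at an unadjusted p under 0.05 it was found for 1. Over all genes the share was 14.0%. Near its end the Gstm7 stretch holds an atg with no stop codon in frame after it. Part of that stretch may thus be transcribed and coding from the other annotated start, and its match need not lie in a promoter. A match is a description of letters only. A promoter was found for 120 of the 144 enzyme genes.

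Gstm1, the most abundant mu enzyme at 177 CPM per kilobase, stood at 340, 307 and 304 CPM after control exposure and at 213, 216 and 186 CPM after pup exposure. On the TMM scale the libraries of each group lay close together and far from those of the other group. The group means were 317 ± 20.1 and 205 ± 16.7 CPM (SD, n = 3 each). Even so, the log2 fold change of -0.63 had an edgeR adjusted p of 0.522. The fold change was -0.15 with the exon length trend removed and -0.36 with library totals alone. As an unscaled share of all counts the groups of Gstm1 overlapped, because control exposure replicate 3 lay inside the pup exposure range. Gstm7 was at 17.8, 11 and 13.3 CPM after control exposure and at 8.31, 3.05 and 4.70 CPM after pup exposure. It had the largest difference of the class, with a log2 fold change of -1.39 ± 0.50 (SE; edgeR adjusted p = 0.424). Gstm4 went from 15.4 ± 6.23 to 6.90 ± 1.24 CPM and Gstm5 from 59.5 ± 21.5 to 33.9 ± 10.03 CPM (SD, n = 3 each). Gstm5 overlaps 4933431E20Rik, transcribed from the opposite strand, and whether counting used strand is not given in the sources used here. That row had a log2 fold change of 0.03.

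In the theta, pi, alpha and omega classes, means were also lower after pup exposure in all tested genes but Gsto2. Gstt3, a theta enzyme, was at 77.8, 74.1 and 45.8 CPM after control exposure and at 39.9, 30.7 and 33.3 CPM after pup exposure. The groups did not overlap, and the log2 fold change was -0.93 ± 0.36 (SE; edgeR adjusted p = 0.424). Its neighbour Gstt1 was also separated, at 25.6 to 27.7 CPM against 11.7 to 21.4 CPM, but its log2 fold change of -0.56 was -0.071 with the exon length trend removed, -0.27 with library totals alone and -0.33 when pup exposure replicate 1 was left out. Gstt2 lay just outside the unadjusted threshold, at -0.91.

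Gstp1 and Gstp2, of the pi class, are near-identical, with 12 differences in 630 coding bases (identity 98.1%). The stretches below (coding positions 271 to 330, GENCODE M21) are shown because they are among the most different between the pair, with capitals at the 5 differing bases. They lie on the minus strand of GRCm38, at chr19:4036694-4036753 for Gstp1 and chr19:4040988-4041047 for Gstp2.
Gstp1: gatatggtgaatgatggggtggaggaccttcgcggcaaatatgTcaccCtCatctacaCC
Gstp2: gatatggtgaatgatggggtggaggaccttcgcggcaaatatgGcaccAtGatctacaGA
A share of 62.3% of the 50-base words of Gstp1 occurs in another gene. Gstp1 was at 78.5, 134 and 183 CPM after control exposure and at 65.4, 49.5 and 91.7 CPM after pup exposure. The highest pup exposure library lay inside the control exposure range, and the log2 fold change was -0.94 ± 0.42 (SE; edgeR adjusted p = 0.45), or -0.49 with the length trend removed. Gstp2 was at most 1.72 CPM.

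Gsta4, an alpha enzyme that detoxifies the lipid peroxidation product 4-hydroxynonenal, and Gsto1, an omega enzyme, followed Cbr2 and Cyp2f2 per length, at 307 and 207 CPM per kilobase. Gsta4 was at 288, 418 and 797 CPM after control exposure and at 379, 183 and 268 CPM after pup exposure. Gsto1 was at 161, 713 and 730 CPM after control exposure and at 381, 115 and 411 CPM after pup exposure. Control exposure replicate 3 was the highest and pup exposure replicate 2 the lowest in both genes, and the groups overlapped. The odorant-binding protein gene Obp2a, a gland product, was also highest and lowest in those libraries, at 430057 and 67789 CPM. The part of gland RNA in these values was not tested.

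**Figure D5:**
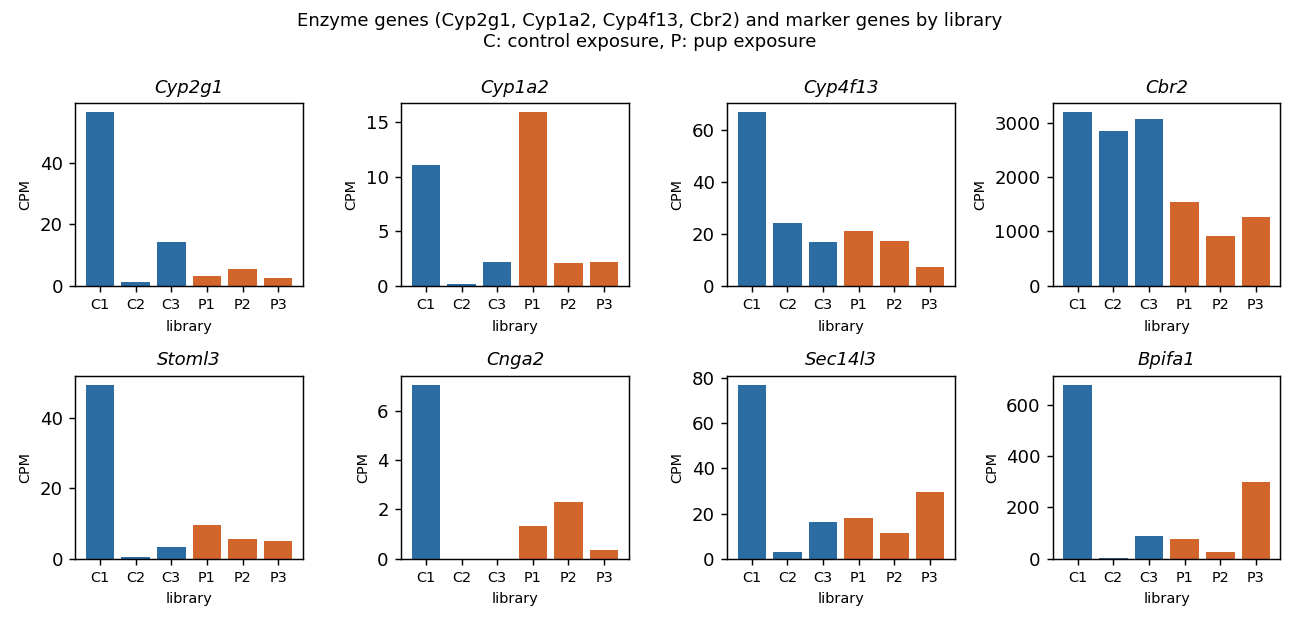
Level in CPM (bars, linear axes) in the 3 control exposure (C) and 3 pup exposure (P) libraries. Enzyme genes are in the upper row. The lower row holds marker genes of main olfactory neurons (Stoml3, Cnga2), supporting cells (Sec14l3) and nasal glands (Bpifa1). Cyp2g1 peaks at 56.4 CPM in control exposure replicate 1, and Cyp1a2 is highest in the 2 replicates numbered 1.

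The partner genes of these enzymes were read from 5 lists, of which 69 of 77 genes were tested: 43 were negative and 26 positive, with a median of -0.31. At an unadjusted p under 0.05, 8 were lower, beside 4.67% of all genes, and 2 higher, beside 6.31%, and at an adjusted p under 0.05 by edgeR 0 passed. The lower count was 2 with control exposure replicate 1 left out (2.83% of all genes), and 5 with control exposure replicate 2 (3.25%) or pup exposure replicate 1 (4.98%) left out. The higher count was 0 when pup exposure replicate 2 was dropped, and 1 for control exposure replicates 2 and 3 and for pup exposure replicate 3. The list of electron donors, hydrolases and other reductases had 19 of 23 negative, beside 48.5% of all genes, and a median of -0.66, with 5 lower at an unadjusted p under 0.05, beside 4.67%. It held Adh1, an alcohol dehydrogenase, at 352, 123 and 226 CPM after control exposure, against 56.5, 97.3 and 106 CPM after pup exposure. The groups of Adh1 did not overlap, and its log2 fold change was -1.43 (edgeR adjusted p = 0.405). In the same list the epoxide hydrolase gene Ephx1 had a log2 fold change of -1.02, the quinone reductase gene Nqo1 -0.95, and the aldo-keto reductase genes Akr1b3 and Akr1b8 -1.07 and -1.84. Por, which passes electrons to every microsomal P450, was at 404, 298 and 145 CPM against 108, 270 and 202 CPM, with overlap and a log2 fold change of -0.55.

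Of 14 tested genes for other conjugations, 13 were negative, beside 48.5% of all genes, including the sulphurtransferase gene Tst at -0.83. Of 14 cofactor genes 5 were negative, beside the same 48.5%, and 9 positive, with a median of 0.30. Gclc and Gclm, the subunits of the enzyme that limits glutathione synthesis, were at 0.59 and 0.34, while Gss, which completes glutathione, was at -1.06. Among 9 tested receptors and regulators 3 were negative, beside 48.5% of all genes, and 6 positive. Ahr, the aryl hydrocarbon receptor, was at 0.93, its partner Arnt at 1.01, Nfe2l2, which encodes Nrf2, at -0.21 and its inhibitor Keap1 at -0.67. Of 9 tested transporters 3 were negative, beside 48.5% of all genes, and 6 positive, with the exporter genes Abcc1 at 0.85 and Abcc4 at -1.08. The receptor and transporter genes were longer, with median exon lengths of 5265 and 7361 bases, than the tested enzyme genes. The lists for electron supply, other conjugations and cofactors had medians of 3285, 1956 and 3807 bases. Of all genes of 1000 to 2000 bases 77.6% were negative, of those of 2000 to 4000 bases 61.1%, and of those of 4000 to 8000 bases 36.2%. The part of length in the signs of these lists was not tested.

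Markers of the cell types that could carry the enzymes were read beside these values. Of 12 supporting cell markers 11 were tested, and 7 were positive and 4 negative, with a median of 0.34. Their summed level was 1381 to 1569 CPM after control exposure, against 1031 to 1242 CPM after pup exposure. The keratin genes Krt8 and Krt18 and the gene Ppic had log2 fold changes of -0.50, -0.68 and -0.71, the transcription factor gene Sox2 0.34 and the adhesion genes Epcam and Cdh1 0.40 and 1.07. Ermn, another marker of these cells, was at 0 in 3 libraries and at most 0.938 CPM. Of 14 nasal gland markers 13 were negative, with a median of -0.60, and their summed level overlapped between groups, at 280099 to 913073 CPM and 191418 to 462458 CPM. Red blood cell transcripts summed to 197 to 546 CPM after control exposure, against 46.9 to 148 CPM after pup exposure, without overlap. Main olfactory neuron markers went the other way, with 6 of 8 positive and 3 higher at an unadjusted p under 0.05 (beside 6.31% of all genes), and summed to 201 to 298 CPM after control exposure, below the 304 to 586 CPM of the pup exposure libraries. Of 6 tested markers of immature neurons and progenitors 5 were negative, and the list summed to 297 to 465 CPM against 204 to 297 CPM. The mature vomeronasal neuron markers, which include Omp, were present in every library and summed to 1619 to 1748 CPM and 1444 to 1737 CPM. Median exon lengths were 812 bases for the tested red blood cell markers, 2057 for supporting cells, 2170 for glands, 4165.5 for immature neurons and 5392 for main olfactory neurons. Of all genes of at most 1000 bases 72.2% were negative, of those of 2000 to 4000 bases 61.1%, and of those of 4000 to 8000 bases 36.2%. Neither the part of length in the marker values nor the part of cell composition in the enzyme differences was tested.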

How the data were processed

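Phospho-S6 immunoprecipitated RNA from 6 vomeronasal organ libraries was read from 1 table of whole-number read counts per Ensembl gene, deposited by the authors without normalization. Per the submitters' processing notes the build was GRCm38; how reads were aligned, counted, assigned by strand and treated when they matched several places is not given in the sources used here. Gene names and exon lengths came from GENCODE M21, which matched 36723 of 38561 rows. The counts were tested with edgeR 4.0.16 in R 4.3.3 (quasi-likelihood test, intercept and group), after filterByExpr (minimum count 10, minimum total 15) and TMM scaling. P-values were Benjamini-Hochberg adjusted over 15498 genes, with a threshold of 0.05. DESeq2 1.42.0, limma 3.58.1, other scalings and filters, a replicate block and leaving out each library were alternatives. The script was tested on simulated data. Replicates of a group differed beyond sampling noise, with a chi-square per degree of freedom of 90.6 to 343.

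The members, the lists of partner and marker genes and the tests were chosen with earlier results of these data known. Named genes were the 15 members highest per length, the 10 with the smallest unadjusted p in each direction, the highest of each class, nasal P450 markers, partner genes at an unadjusted p under 0.05, and near-identical partners. Other names were added after values were seen, and 1 gene the rule would name is not reported here or labelled in the figures. Shared 50-base words were counted between the longest transcript of each member and every transcript of any other gene, on either strand. Levels of genes are ranked only per kilobase of exon, while sums and shares of a sum are of CPM without length. Depth was 10590716 to 20871266 counts per library, and floors cover counting error only.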

Additional observations from a re-analysis of the deposited data

How the results depend on the processing

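With a filter on low counts, no enzyme gene passed an adjusted p under 0.05 by edgeR. With no filter edgeR called 1 lower, Cyp2g1 (edgeR adjusted p = 0.000619), whose groups overlapped and whose level was highest by far in control exposure replicate 1. DESeq2 called 1 lower (Cbr2) and left 45 members with no adjusted p. The count lower at an unadjusted p under 0.05, 10, was 2 with library totals only (1.08% of all genes), 8 with the replicate block (4.36%), and 3 to 8 when each library was left out in turn (2.59% to 4.98%). The lowest count came without pup exposure replicate 2; it was 4 without pup exposure replicate 3, and 5 when control exposure replicate 1 was left out. The count of higher genes was 0 to 1 over those fits. Library totals moved the median of all genes from 0.03 to 0.31, and the enzyme median was -0.35, which is -0.66 relative to all genes beside -0.60 with TMM. The other pathway genes higher at an unadjusted p under 0.05, 2 in all, numbered 1 with RLE scaling, upper quartile scaling, library totals, DESeq2, limma-voom and the replicate block, 4 with sample quality weights, 0 with the exon length trend removed and 0 to 2 on leaving out libraries. The lower count, 8, was 1 with library totals and 2 to 9 on leaving out libraries. The difference in summed share was -0.25 percentage points, -0.73 with the 50 most abundant genes out of the denominator, and -0.37 to -0.16 on leaving out libraries. Direction turned for Ugt2a2, which ran from -0.78 to 0.0030 on leaving out libraries (highest without control exposure replicate 1). Cyp1a2 ran from -1.08 to 2.58, and it was -0.031 when control exposure replicate 2 was left out. Gsto2 was at -0.083 with sample quality weights and -0.24 to 0.55 on leaving out libraries, and Cyp2u1 ran from -0.21 to 7.32. For each change the cause was not tested.

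Same-numbered libraries deviated together by correlations of -0.04, 0.18 and 0.07, so the numbers were not taken as pairs and the block is only an alternative.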
